A study of Mus musculus with 6 samples.

Results

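The 42 genes described here are Chfr, which encodes an ubiquitin ligase of the checkpoint before mitosis, and 41 genes of mitosis: cyclins and kinases, checkpoint and kinetochore proteins, motors, and genes of anaphase and cytokinesis. They were taken by gene name from the array annotation. Together they had 62 of the 55681 probes on the array, 27 of the genes having 1 probe and 15 having several, and 60 probes of 41 genes were bright enough to be tested. Over the whole array, 20168 probes under 14879 gene or transcript names were tested. RNA came from 1676 cells, a mouse pre-B cell line of SLP-65-/- LAT-/- genotype that lacks these adaptors of the pre-B cell receptor and is grown with the cytokine IL-7. The cells carried a retroviral control vector, a vector for the human hsa-miR-26a-2, called miR-26a here, or a miR-26 sponge. The sponge is a transcript with repeated sites that is meant to take up the endogenous microRNA. All cells were selected with puromycin in IL-7 medium. Each group had 2 arrays, 1 from each of 2 independent experiments with cell clones made anew. Because all groups share the cell line, its genotype, IL-7 and puromycin, the comparisons say nothing about cells without them.

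A cell enters mitosis when cyclin B with the kinase Cdk1 becomes active, and Cdc25 phosphatases switch that kinase on while Chfr can hold cells back under stress. Chromosomes then attach to the spindle through kinetochores, the spindle assembly checkpoint waits until all are attached, and the anaphase-promoting complex releases sister chromatids by way of securin and separase. Most of these mRNAs are made late in the cell cycle, so in a bulk culture their level follows the share of dividing cells as well as the amount per cell. With total RNA of a culture, fewer cells of a kind and less RNA per cell cannot be told apart.

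The mouse miR-26a and its close relative are shown because all comparisons turn on this family, with the seed, bases 2 to 8, in capitals. The vector carried the human hsa-miR-26a-2, whose sequence is not shown. RefSeq (GRCm38.p6) places miR-26a-5p at chr9:119031811-119031832 and chr10:126995543-126995564 and miR-26b-5p at chr1:74394324-74394344, all on the + strand, and both share the seed.
mmu-miR-26a-5p: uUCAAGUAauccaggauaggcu
mmu-miR-26b-5p: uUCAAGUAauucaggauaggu
Of the 62 member probes, each 60 bases long, 0 held the letters TACTTGA, which pair with the seed, and 1, for Nuf2, held ACTTGAA. Over the probes tested these words stood in 0.441% and 0.739%. A probe covers only a short piece of a transcript, so this says nothing about sites elsewhere in it.

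Promoters of many mitotic genes carry a CHR (cell cycle genes homology region), an element bound by complexes that hold these genes down outside G2 and mitosis, and CCAAT boxes, which bind NF-Y. RefSeq promoters, 250 bases before to 50 after the annotated start, were at hand for 35 of the 42 genes, and those of Tpx2, Foxm1, Kif20a, Cdc25c, Ccna2, Aurkb and Incenp were not matched. Below are 100 bases before and 20 bases after the start in the transcript's direction, for Chfr, for Cdc25b and Cenpe, which fell with it, and for 5 members that did not pass the test as lower with miR-26a. Ndc80 fell too but is not shown, and its CHR letters start 29 bases after the start, beyond these bases. The 5 were picked and all held both words, as did 23 of the 35 members, so the display is no comparison of the groups. Capitals mark TTTGAA or TTCGAA (CHR) and CCAAT, each on either strand.
Chfr, chr5:110135730-110135849 (+): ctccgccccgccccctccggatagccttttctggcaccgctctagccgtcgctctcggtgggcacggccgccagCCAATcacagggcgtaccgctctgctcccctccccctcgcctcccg
Cdc25b, chr2:131186848-131186967 (+): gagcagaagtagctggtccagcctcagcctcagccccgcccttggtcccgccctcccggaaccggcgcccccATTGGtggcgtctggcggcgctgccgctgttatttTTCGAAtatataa
Cenpe, chr3:135212463-135212582 (+): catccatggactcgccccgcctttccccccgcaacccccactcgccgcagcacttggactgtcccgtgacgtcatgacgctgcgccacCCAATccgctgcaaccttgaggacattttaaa
Cdk1, chr10:69352893-69353012 (-): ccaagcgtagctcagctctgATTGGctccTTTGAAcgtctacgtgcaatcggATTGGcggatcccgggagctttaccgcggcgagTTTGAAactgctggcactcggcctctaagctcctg
Ccnb2, chr9:70421535-70421654 (-): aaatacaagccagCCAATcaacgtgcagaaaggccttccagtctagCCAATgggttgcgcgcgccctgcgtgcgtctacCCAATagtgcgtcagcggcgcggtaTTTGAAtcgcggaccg
Cdc20, chr4:118437324-118437443 (-): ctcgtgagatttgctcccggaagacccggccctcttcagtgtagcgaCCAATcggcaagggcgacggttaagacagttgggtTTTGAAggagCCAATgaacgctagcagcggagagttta
Espl1, chr15:102296193-102296312 (+): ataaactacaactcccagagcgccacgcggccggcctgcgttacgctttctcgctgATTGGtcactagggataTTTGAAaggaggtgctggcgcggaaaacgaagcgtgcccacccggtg
Kif11, chr19:37376282-37376401 (+): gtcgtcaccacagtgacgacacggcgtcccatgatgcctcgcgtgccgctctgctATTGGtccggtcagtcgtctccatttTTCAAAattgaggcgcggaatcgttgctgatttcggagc

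The CHR letters stood in the promoters of 26 of the 35 members (74.3%), against 21.7% of the 27025 genes in the table. Counted by promoter, 29 of 38 member promoters held them (76.3%), against 19.2% of all 32851. CCAAT stood in 26 of the 35 members too, against 41.1% of all genes, and 23 of the 35 (65.7%) held both words, against 8.6% of all genes. The matches of the 2 words shared bases in 1 member promoter. Chfr was among the 9 members without the CHR letters and had 1 CCAAT, 26 bases before its start. Of the other members that fell with miR-26a, Cdc25b had the CHR letters 7 bases after its start, Ndc80 had them 29 bases after its start, and Cenpe had CCAAT alone. A match of letters is a description and not a binding site, and no factor was measured.

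**Figure D1:**
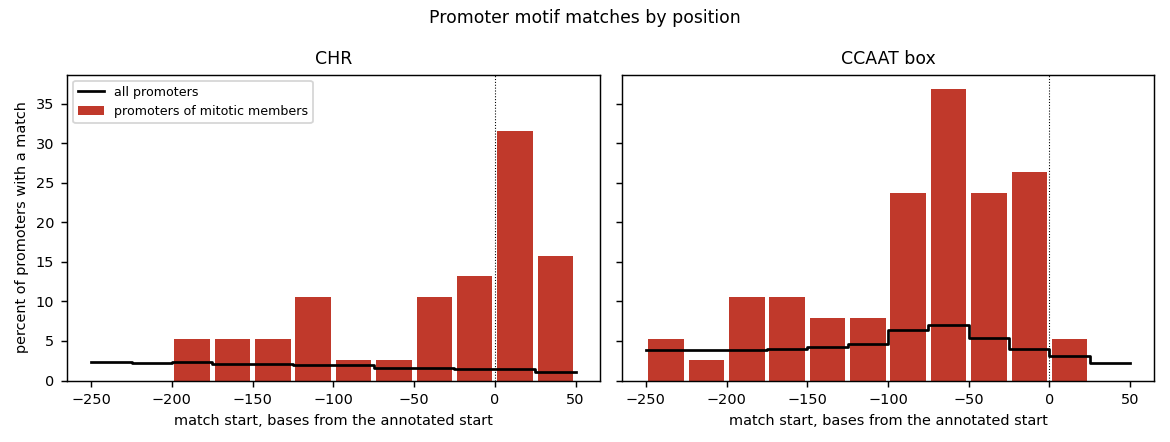
Share of promoters (percent) with a match that starts in each 25-base window, by distance from the annotated start (bases), for the 38 member promoters (bars) and all 32851 promoters (line). In the window just after the start, 31.58% of member promoters held the CHR letters against 1.43% of all, and CCAAT was most frequent 75 to 50 bases before the start, with 36.84% against 6.99%.

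The 6 arrays lay on 1 slide and were scanned together, with experiment 1 in slide row 1 and experiment 2 in slide row 2, so the experiment and the slide row cannot be told apart. Between 28823 and 29800 of 59305 spots per array were well above background, no spot was saturated, and paired arrays of a group correlated at 0.9957 to 0.9974. All 10 pre-B cell markers exceeded the background on each of the 6 arrays and none passed the test in any comparison. Of 8 myeloid markers 4 were tested and Fcgr3 alone was lower with miR-26a, by a log2 change of -0.51 (adjusted p = 0.034). The summed myeloid signal ran from 3940 to 5000 on the control arrays, 4040 to 4840 with miR-26a and 3370 to 4810 with the sponge, with Cd14 not well above background on any array and Lyz2 on 1. Of 6 T cell markers 2, Cd3e and Cd4, were tested and well above background on all 6 arrays. Cd3g and Cd8a were well above background on no array. The summed T cell signal ran from 1410 to 1420 on the control arrays, 1300 to 1420 with miR-26a and 1070 to 1200 with the sponge. With the sponge none of the tested myeloid and T cell markers passed the limma test. Of the myeloid markers, Csf1r changed by -0.69 (adjusted p = 0.22) and Elane by -0.20 (adjusted p = 0.47). Itgam changed by -0.13 (adjusted p = 0.54) and Fcgr3 by -0.002 (adjusted p = 0.99). Cd4 changed by -0.32 (adjusted p = 0.22) and Cd3e by -0.29 (adjusted p = 0.29). The median of the members was below 0 there too. The part of these markers in the results below was not tested. The 62 member probes, too, exceeded the background on each array, but the only Aurkb probe, at signals of 18.9 to 29.2, and 1 of 3 Cdk1 probes were too dim for the test. Levels are log2 of the quantile-normalized signal, differences are log2 changes with the standard error of the fit, and a gene is counted by its brightest tested probe. Signals of different probes are not compared with each other.

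The first question was whether miR-26a altered the transcripts of mitosis. In miR-26a-expressing cells Chfr fell to 53.0% of the control level, Cdc25b to 67.1%, Ndc80 to 69.8% and Cenpe to 77.2%. These were 4 of the 41 members tested (9.76%), and none passed the test as higher. Over all genes tested 5.2% were called lower and 4.66% higher, so the members called outnumbered the background share by only a few genes, and none of them lay above 0. Without Chfr, which gives the set its name, 3 of 40 (7.5%) were lower. Without an adjustment for multiple testing 9 members were lower and 0 higher at p under 0.05, against 12.8% and 14.3% of all genes.

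Chfr, the checkpoint ligase, lies on chromosome 5 and its probe at chr5:110600898-110600957 (mm9). Its log2 signal was 12.96 and 12.97 on the control arrays, 12.02 and 12.07 with miR-26a, and 13.25 and 13.05 with the sponge. The miR-26a arrays were lower than all others, the groups did not overlap, and the sponge arrays were the highest. For this and the other members called, which were chosen with earlier results of these data known, such separation adds no support to the calls. The change with miR-26a was -0.92 ± 0.09 (SE, n = 2 per group; adjusted p = 0.0070, limma), and it was -0.93 in experiment 1 and -0.90 in experiment 2. Without control array 1 or 2 the change was -0.96 or -0.87, with adjusted p = 0.067 and 0.071. When dim probes were not filtered out, the adjusted p of Chfr was 0.23 and no member was called in any comparison.

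Cdc25b is a phosphatase that activates cyclin-dependent kinases at the entry into mitosis, with its probe at chr2:131023911-131023970 (mm9). Its log2 signal was 14.14 and 14.44 in control cells, 13.67 and 13.77 with miR-26a, and 13.93 and 14.34 with the sponge. The miR-26a arrays lay below the others, and in each group the array of experiment 2 was the higher. The change was -0.58 ± 0.09 (SE, n = 2 per group; adjusted p = 0.024, limma).

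Ndc80, an outer kinetochore protein that binds spindle microtubules, gave 11.96 and 12.15 on the control arrays, 11.41 and 11.66 with miR-26a, and 11.89 and 12.20 with the sponge. Control and sponge arrays overlapped, and both miR-26a arrays were below it. The change was -0.52 ± 0.07 (SE, n = 2 per group; adjusted p = 0.015, limma).

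Cenpe, a kinesin that carries chromosomes at the kinetochore, gave 14.73 and 14.85 in control cells, 14.36 and 14.48 with miR-26a, and 14.71 and 14.67 with the sponge. Again the miR-26a arrays did not overlap with the others. The change was -0.37 ± 0.08 (SE, n = 2 per group; adjusted p = 0.041, limma), with -0.37 in experiment 1 and -0.38 in experiment 2. The call of Cenpe was lost under 75th percentile scaling (adjusted p = 0.060), and without the experiment as a block Chfr was the only member called. Without control array 1 or control array 2 no member was called, and without miR-26a array 2 the calls were Chfr and Ndc80.

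**Figure D2:**
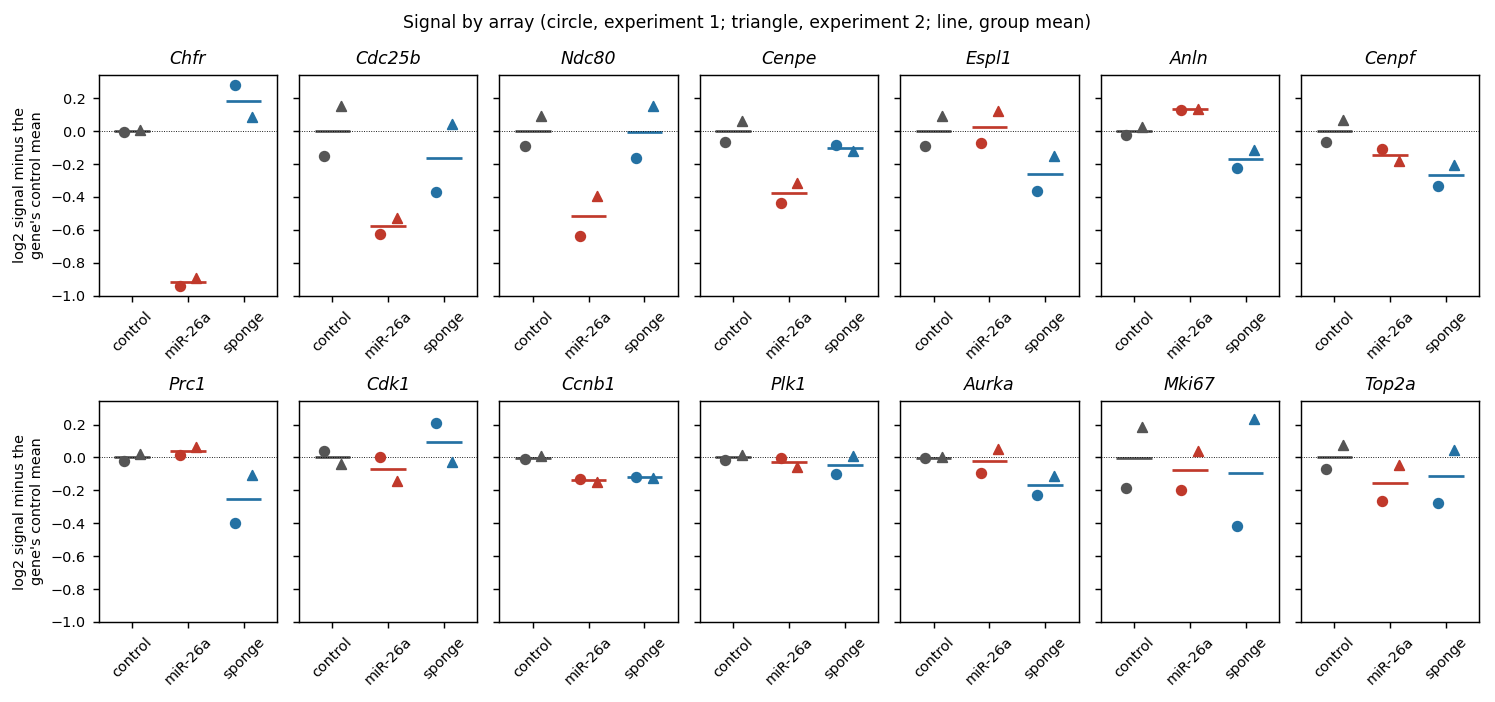
Log2 signal on each array minus the gene's control mean (vertical axis) by group (horizontal axis), with circles for experiment 1, triangles for experiment 2 and lines for group means of 2 arrays. Chfr, Cdc25b, Ndc80 and Cenpe are lowest on both miR-26a arrays, while Mki67 differs more between experiments than between groups.

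The cyclins and kinases at the centre of mitotic entry did not pass the test. With miR-26a 5.2% of all genes were called lower and 4.66% higher, so no call among a few genes is near those shares. Ccna2, cyclin A2, changed by 0.06 with miR-26a and Ccnb2, cyclin B2, by -0.12. Cdk1, the mitotic kinase, gave 12.13 and 12.04 in control cells, 12.09 and 11.94 with miR-26a, and 12.29 and 12.06 with the sponge. Ccnb1, its cyclin B1 partner, gave 14.26 and 14.28, then 14.14 and 14.12 with miR-26a, and 14.15 with the sponge on both arrays. For Ccnb1 all 4 arrays with miR-26a or the sponge were below the controls, but the change with miR-26a was -0.14 (95% interval -0.30 to 0.02), and for Cdk1 it was -0.07 (-0.25 to 0.11). Dimmer probes gave larger changes, -0.20 (-0.38 to -0.03; adjusted p = 0.14) for Cdk1 and -0.21 (-0.39 to -0.03; adjusted p = 0.13) for 1 of the other 2 of Ccnb1, whose last probe gave -0.11. With the mean of the tested probes Cdk1 changed by -0.14 and Ccnb1 by -0.15, neither past the test.

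Among the kinases, Plk1, which acts from entry to cytokinesis, gave 14.80 and 14.83 in control cells, 14.81 and 14.76 with miR-26a, and 14.72 and 14.82 with the sponge. Its change with miR-26a was -0.03 (95% interval -0.21 to 0.15). Aurka, the kinase of centrosomes and spindle poles, gave 13.90 on both control arrays, 13.81 and 13.95 with miR-26a, and 13.67 and 13.79 with the sponge, a change with miR-26a of -0.02 (-0.20 to 0.16). Plk4, which starts centriole duplication, changed by -0.05. The intervals leave room for shifts of about this width in either direction and so do not show that the levels were alike.

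In the spindle assembly checkpoint, 0 of 5 members passed the test with miR-26a, against 5.2% of all genes lower and 4.66% higher. With 5 genes, 0 calls is near those shares. Of the 5 changes 4 were below 0, against 47.4% of all genes. Bub3, which recruits Bub proteins to kinetochores, gave 14.65 and 14.77 in control cells and 14.44 on both miR-26a arrays, a change of -0.28 (adjusted p = 0.087). The kinase Ttk changed by -0.24 (adjusted p = 0.082). Bub1, Bub1b and Mad2l1 had changes of -0.14, -0.06 and 0.00. The list's median was -0.14, beside 0.01 over all genes tested.

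All 6 members of the centromere and kinetochore group had changes below 0 with miR-26a, with a median of -0.19. Of them 2, Ndc80 and Cenpe, were called (33.3%), against 5.2% of all genes called lower. With the sponge all 6 lay below 0 too, with a median of -0.10 and 0 called, against the same control arrays. The sizes there differed by gene, with Ndc80 at -0.01, Cenpa at -0.02, Cenpe and Spc25 at -0.10, Nuf2 at -0.12 and Cenpf at -0.27. With miR-26a Cenpa, the centromeric histone, changed by -0.24 (adjusted p = 0.10). Spc25 changed by -0.13 and Nuf2 by -0.04, although both form 1 complex with Ndc80. For Nuf2 the probes differed, the dimmest of 3 giving -0.33 (adjusted p = 0.061) and the probe between them -0.11. Cenpf, a large protein of the outer kinetochore, changed by -0.14 on a dim probe with signals of 104 to 136.

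None of the 3 chromosomal passenger genes tested, 5 kinesins, 5 spindle and cytokinesis genes, 4 anaphase genes and 2 chromosome genes was called with miR-26a. Of all genes 5.2% were called lower and 4.66% higher, and groups this short can hold 0 calls at those shares. Birc5, Cdca8 and Incenp of the passenger complex lay between -0.10 and 0.08. The kinesins lay between -0.19 for the chromokinesin Kif4 and 0.05 for Kif23, which works in cytokinesis. In the spindle and cytokinesis group Nusap1, which binds spindle microtubules, was lowest at -0.23 (adjusted p = 0.14) and Anln, a scaffold of the contractile ring, highest at 0.13. Ube2c, the E2 enzyme of the anaphase-promoting complex, changed by -0.28 (adjusted p = 0.13), and its second probe gave -0.30.

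Mki67, the proliferation marker, gave 15.66 and 16.03 on the control arrays, 15.65 and 15.89 with miR-26a, and 15.43 and 16.08 with the sponge. The experiments differed by more than the groups, and the change with miR-26a was -0.08 (95% interval -0.36 to 0.20) on this probe and 0.08 on the second one. Top2a, the topoisomerase that disentangles sister chromatids, gave 14.13 and 14.28, then 13.94 and 14.16 with miR-26a, and 13.93 and 14.25 with the sponge. Its groups overlapped and its change with miR-26a was -0.16 (-0.34 to 0.03).

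Over all 41 members the median change with miR-26a was -0.08, and 33 (80.5%) lay below 0, against a median of 0.01 and 47.4% of all genes. In 28 of the 41 the change was below 0 in both experiments and in 5 it was above 0 in both. Of all 14879 genes, 4833 were below 0 in both and 5598 above 0 in both. Without Chfr the median was -0.08 and 32 of 40 lay below 0. With the mean of a gene's probes in place of the brightest one the median was -0.12. In all, 35 of 41 members changed by less than 0.25, as did 11642 of the 14879 genes tested.

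**Figure D3:**
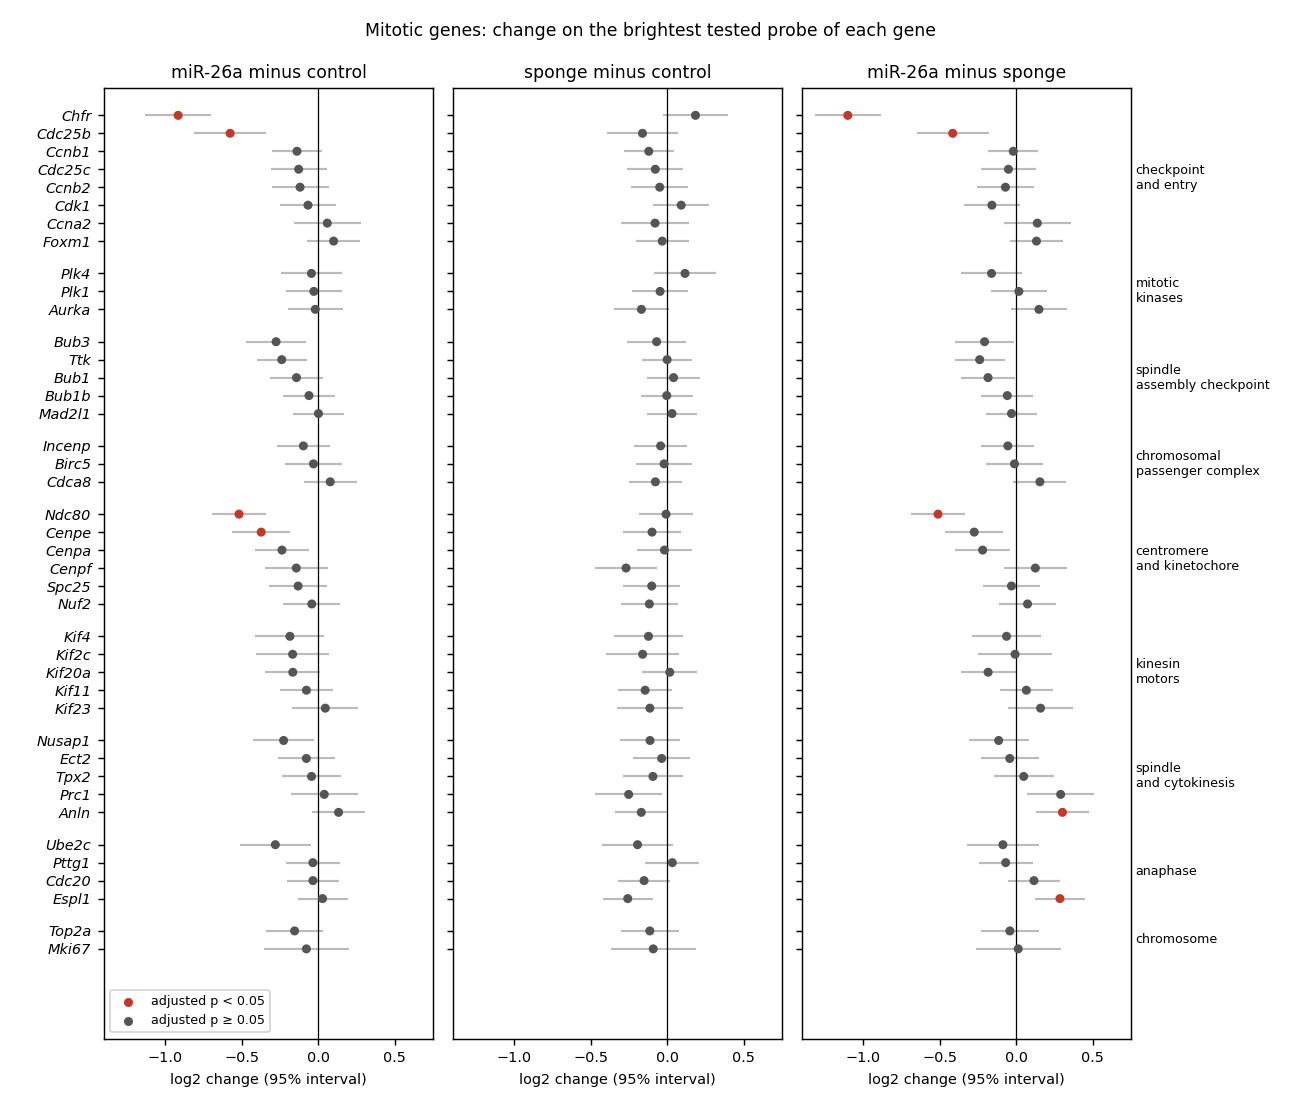
Log2 change (horizontal axis, with 95% intervals from limma) of the brightest tested probe of each of the 41 members, by role, in the 3 comparisons; red points have an adjusted p under 0.05. Chfr has the lowest change with miR-26a, at -0.92 against control and -1.10 against the sponge, and no point is red for the sponge against control.

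The second question was whether taking up endogenous miR-26 moved the same genes the other way. With the sponge 0 of 41 members passed the test in either direction in limma. Over all genes 0.0% were called lower and 0.0134% higher, so the comparison made almost no calls anywhere. At an unadjusted p under 0.05, 3 members were lower and 0 higher, against 8.58% and 7.25% of all genes. Chfr changed by 0.18 (95% interval -0.03 to 0.40; adjusted p = 0.36), by 0.29 in experiment 1 and 0.08 in experiment 2, and both sponge arrays were above both control arrays.

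Of the other genes that fell with miR-26a, Ndc80 changed by -0.01 with the sponge (95% interval -0.18 to 0.17), Cenpe by -0.10 (-0.29 to 0.09) and Cdc25b by -0.16 (-0.40 to 0.07). The 3 members with the lowest unadjusted p were Espl1, Cenpf and Prc1. Espl1, the separase that cuts cohesin, gave 11.997 and 12.18 in control cells and 11.73 and 11.94 with the sponge, a change of -0.26 (adjusted p = 0.23). Cenpf gave 6.96 and 7.09 in control cells, 6.92 and 6.84 with miR-26a, and 6.70 and 6.82 with the sponge, a change of -0.27 (adjusted p = 0.25). Prc1, which bundles microtubules of the central spindle, gave 13.93 and 13.97 in control cells, 13.96 and 14.01 with miR-26a, and 13.55 and 13.84 with the sponge, a change of -0.25 (adjusted p = 0.28). The sponge arrays did not overlap with the controls for these genes, which were picked by their low p in this same comparison. That separation therefore adds no support to the changes.

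The median change of the members with the sponge was -0.08, and 34 of 41 (82.9%) lay below 0, against 0.01 and 47.9% of all genes. It thus had the sign of the median with miR-26a. Both comparisons use the same 2 control arrays, and a deviation of those arrays enters both alike. Under 75th percentile scaling the sponge median was -0.03, with 26 of 41 members below 0 and the median of all genes at 0.04.

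The direct comparison of miR-26a with the sponge leaves the control arrays out of the difference. Chfr, Ndc80 and Cdc25b were lower with miR-26a than with the sponge, and Anln and Espl1 were higher. That made 3 of 41 members lower and 2 higher, against 8.54% and 8.35% of all genes, which is no more than the background. At an unadjusted p under 0.05 the counts were 9 and 3, against 15.8% and 18.6%. Chfr with miR-26a stood at 46.7% of its level with the sponge, a change of -1.10 ± 0.09 (SE, n = 2 per group; adjusted p = 0.0033, limma), with -1.22 in experiment 1 and -0.98 in experiment 2. Ndc80 changed by -0.51 (adjusted p = 0.012) and Cdc25b by -0.42 (adjusted p = 0.039). Without a filter on dim probes the adjusted p of Chfr was 0.17 here. Without the block Chfr was the only member called (adjusted p = 0.12 for Ndc80 and 0.22 for Cdc25b), and with array weights Cdc25b was not called (adjusted p = 0.056). Without either sponge array Chfr alone was called, and without either control array, or miR-26a array 2, the calls were Chfr and Ndc80.

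Anln gave 13.02 and 13.07 in control cells, 13.18 on both miR-26a arrays, and 12.82 and 12.93 with the sponge. Its arrays stood in the order miR-26a, control, sponge without overlap. Anln was picked by its call between miR-26a and the sponge, so that separation adds no support to it. The difference of miR-26a from the sponge was 0.30 (adjusted p = 0.039). Espl1 gave 12.02 and 12.22 with miR-26a, close to its control values, and its difference from the sponge was 0.29 (adjusted p = 0.040). Both calls were lost under 75th percentile scaling (adjusted p = 0.078 and 0.087), and with any 1 of the 6 arrays left out no member was called higher. The median over all members was -0.04, with 26 of 41 (63.4%) below 0, against 0.02 and 46.9% of all genes.

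Foxm1, the transcription factor that drives many genes of G2 and mitosis, had 2 probes that disagreed. The brighter one gave changes of 0.10 with miR-26a and -0.03 with the sponge, and 0.13 between miR-26a and the sponge (adjusted p = 0.23). The dimmer one, at chr6:128323866-128323925 (mm9), gave 9.32 and 9.56 in control cells, 9.41 and 9.69 with miR-26a, and 8.96 and 8.92 with the sponge. There the sponge arrays were the lowest, at -0.50 against control (adjusted p = 0.22), and the difference between miR-26a and the sponge was 0.61 (adjusted p = 0.017). Among the 15 genes with several tested probes, probes had opposite signs in 2 with miR-26a, 5 with the sponge and 7 between them.

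Within each group the members tended to be higher in experiment 2. This held for 36 of 41 members in control cells, 29 with miR-26a and 33 with the sponge, and for 24 members in all 3 groups, against 46.4%, 50.7% and 48.2% of all genes. The median difference between experiments was 0.07, 0.10 and 0.12 on the log2 scale, of the size of the median change between the groups. Each experiment held an array of each group, and the experiment was a block in the fit. A shift shared by all groups therefore drops out of the changes between them. Mki67 had the widest one in any group, 0.66 with the sponge.

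The other genes of mitosis, 76 in lists of condensins, cohesin, the anaphase-promoting complex and further kinetochore and checkpoint genes, were set beside the members without a test of the difference. Of the 73 tested, 0 were called with miR-26a in limma, against 5.2% of all genes lower and 4.66% higher, and 5 were lower and 3 higher at an unadjusted p under 0.05, against 12.8% and 14.3%. Their median change was -0.04, and 48 (65.8%) lay below 0, against 0.01 and 47.4% of all genes. With the sponge 0 were called as well, and 5 were lower and 2 higher at an unadjusted p under 0.05, against 8.58% and 7.25% of all genes. Between miR-26a and the sponge 2 were lower (2.74%) and 3 higher (4.11%), under the 8.54% and 8.35% of all genes. Cenpq and Zwint, both kinetochore proteins, were lower by -0.40 and -0.37 (adjusted p = 0.026 and 0.038). Cenpm of the inner centromere, Pkmyt1, a kinase that inhibits Cdk1, and Pmf1 of the kinetochore were higher by 0.42, 0.38 and 0.31 (adjusted p = 0.021, 0.030 and 0.045).

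No gene linked to Chfr passed the limma test in any comparison. Of all genes 5.2% were called lower and 4.66% higher with miR-26a, and 0.0% and 0.0134% with the sponge. Between miR-26a and the sponge the shares were 8.54% and 8.35%. In a list of 6 genes, 0 calls is near these shares. The 6 genes were Hdac1, Parp1, Usp7, Pml, Hltf and Topbp1, and with miR-26a Pml alone had an unadjusted p under 0.05, at a change of -0.24 (adjusted p = 0.16). Parp1 and Usp7, which have been linked to the turnover of the Chfr protein, changed by 0.03 and 0.05.

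DNA replication genes were chosen to set mitosis beside S phase. With miR-26a 13 of 15 tested had changes above 0 and 13.3% lay below it, against 80.5% of the mitotic members and 47.4% of all genes, though none passed the test as higher. Their median was 0.11, against -0.08 for the members and 0.01 for all genes. At an unadjusted p under 0.05, 6 were higher and 1 lower, against 14.3% and 12.8% of all genes. The one called was Ccne1, cyclin E1, which drives entry into S phase and was lower by -0.60 against control (adjusted p = 0.012) and -0.65 against the sponge (adjusted p = 0.0076). Its log2 signal was 13.15 and 13.11 in control cells, 12.55 and 12.497 with miR-26a, and 13.27 and 13.07 with the sponge. Between miR-26a and the sponge, the helicase subunit Mcm2 was higher by 0.38 (adjusted p = 0.024) and Tyms, of thymidylate synthesis, by 0.36 (adjusted p = 0.045). Against control 1 of 15 was thus called lower (6.67%) and 0 higher, beside 5.2% and 4.66% of all genes. Against the sponge 1 was lower (6.67%) and 2 higher (13.3%), beside 8.54% and 8.35%. In a list of 15 these counts are near the background. The difference between the lists was not tested.

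**Figure D4:**
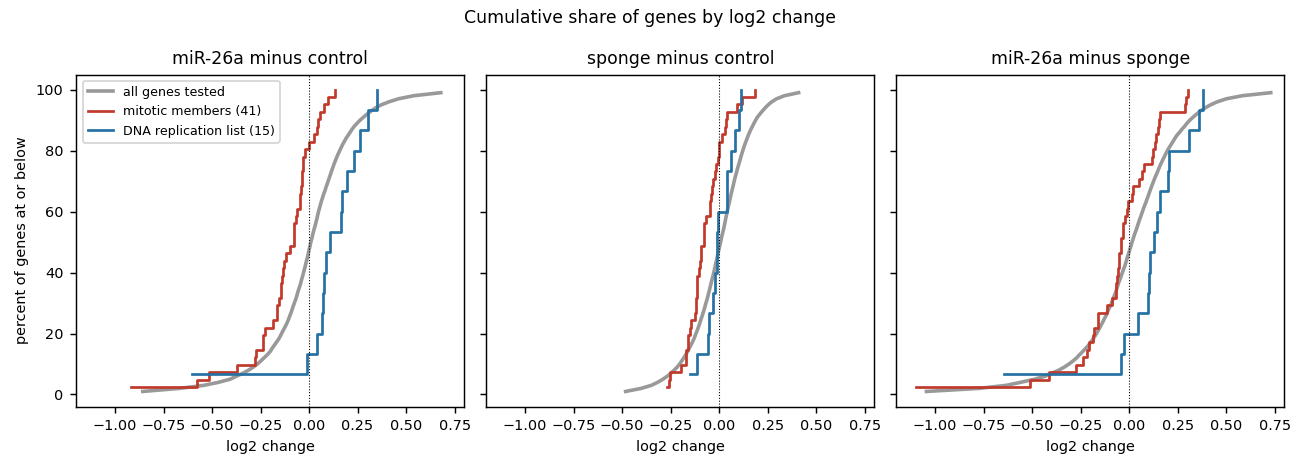
Percent of genes at or below a log2 change (horizontal axis) for the 41 mitotic members, the 15 DNA replication genes and all 14879 names tested (1st to 99th percentile). With miR-26a the medians are -0.08 for the mitotic members, 0.11 for the replication genes and 0.01 for all genes, while at the lower end Ccne1 puts 1 replication gene at -0.60.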

How the data were processed

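RNA of 1676 pre-B cells was hybridised to 6 single-colour Agilent mouse arrays, 2 per group. For every array the authors deposited the scanner's own output (Agilent Feature Extraction, version 10.7.1.1 in the submitters' processing notes), with the background-subtracted processed intensity, mean intensity and background intensity of each spot. The authors also deposited a table of quantile-normalized intensities, on a linear scale, used as an alternative. Low signals carry a surrogate value (29.6% to 33.6% of spots per array), so changes of dim probes are understated. Gene names and coordinates (mm9) come from the design of the array.

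Outlier and control spots were left out, and the processed signals were brought to common quantiles, put on the log2 scale and averaged per probe. Probes were kept that exceeded the background on 1 or more arrays and a signal of 50 on 4 or more, and these were tested with limma 3.58.1 (R 4.3.3), with group and experiment as terms over all 6 arrays and Benjamini-Hochberg adjustment over 20168 probes at 0.05. A gene was represented by its brightest tested probe. The experiment was a block because the study's methods normalize to the control of each experiment. Deviations of same-numbered arrays correlated at 0.38 to 0.59 over the 3 pairs of groups. The fit had 2 residual degrees of freedom and borrowed 3.6 from all probes. The number of arrays limits the precision.

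Values by array are given for Chfr, Ccnb1, Cdk1, Plk1, Aurka, Mki67, Top2a, every member called, and the 3 members of lowest p where none was. From the other lists, called genes are named. Further alternatives were other scalings, background corrections, filters, array weights, the mean of a gene's probes, no block, and leaving out each array. The code was tested on simulated data. The members and lists were chosen with earlier results of these data known. Motifs were searched as letters in RefSeq promoters (GRCm38.p6).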

Additional observations from a re-analysis of the deposited data

How the results depend on the processing

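The direction of Chfr was the same in every comparison under every alternative run. With miR-26a against control it ranged from -0.93 to -0.90 over the 9 alternatives that keep all arrays (adjusted p from 0.00054 to 0.23) and from -0.99 to -0.85 with 1 array left out. Against the sponge it ranged from -1.16 to -1.10, and from -1.21 to -0.99 with 1 array left out. Without a filter on dim probes no member was called in any comparison, with 0 lower against control, 0 lower and 0 higher against the sponge, and the changes of Chfr, -0.92 and -1.10, had adjusted p of 0.23 and 0.17. The cause was not tested. Without the experiment as a block, 1 member was called lower with miR-26a against control, 1 lower and 0 higher against the sponge, Chfr each time, and over all genes 182 lower and 59 higher against control in place of 773 and 693. Against the sponge, all genes called were 480 lower and 267 higher without the block, and 943 and 777 with array weights, in place of 1271 and 1243. Sponge against control gave 24 lower and 8 higher under normexp, in place of 0 and 2, none of them a member. The 2 members higher than with the sponge became 0 under 75th percentile scaling and 0 with array weights. With 1 array left out, the members called lower with miR-26a ran from 0 to 3 against control (0 without control array 1 or 2, 2 without miR-26a array 2) and from 1 to 3 against the sponge (1 without either sponge array), and those higher were 0 to 0. Where a group kept 1 array, that array was assumed to vary like the others. The median change with miR-26a was -0.12 with the mean of a gene's probes, and -0.119 to -0.074 with 1 array left out. Small changes that had not passed the test turned sign. Under 75th percentile scaling, Plk1 became 0.003 and Ndc80 0.054 for sponge against control, and Plk1 -0.043 and Mki67 -0.013 for miR-26a against the sponge. Ccnb1 became 0.074 there under normexp, and Mki67 0.001 against control with the mean of its probes. With 1 array left out, miR-26a against control ranged from -0.085 to 0.045 for Aurka, -0.025 to 0.102 for Prc1, -0.09 to 0.031 for Plk1 and -0.216 to 0.06 for Mki67. Sponge against control ranged from -0.058 to 0.043 for Ndc80, -0.105 to 0.011 for Plk1 and -0.267 to 0.084 for Mki67, and miR-26a against the sponge from -0.043 to 0.078 for Plk1, -0.162 to 0.189 for Mki67 and -0.113 to 0.03 for Top2a. A slide block was not run, since all arrays were on 1 slide. Signals near background were not measured well enough for Aurkb.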
